A study of Mus musculus with 8 samples.

Results

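The erythroid genes described here are markers of red cells and their precursors: the embryonic globin genes Hbb-bh1 and Hba-x, the adult alpha-globin gene Hba-a1, the haem enzyme gene Alas2, the membrane protein genes Rhag, Slc4a1 and Epb42, and the carbonic anhydrase genes Car1 and Car2. They were found as array spots that the platform annotation ties to exactly 1 of these symbols. Of the 9 genes, 7 had such a spot with a value on at least 3 arrays of each genotype, out of 11804 features tested. Hba-a1 was present on 8 spots, all of which the annotation also ties to other symbols, and Epb42 on none of the named spots, so neither was analysed here. The study compared hearts of neonatal connexin43 null mice with hearts of neonatal wildtype mice, all on the C57BL background. Each of 8 arrays carried Cy3-labelled cDNA of a pool of 3 hearts, with 4 pools for null and 4 for wildtype. Every array was hybridised against the same Cy5-labelled reference from organs of adult male and female C57BL mice, among them heart, liver and spleen. The labels do not say how the connexin43 gene was disrupted, and because hearts were pooled, the spread given here is between pools and not between animals.

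Red cells carry no nucleus when mature, but reticulocytes keep globin and other erythroid transcripts, and blood that stays in a dissected heart can carry these RNAs. In the mouse embryo the first red cells come from the yolk sac and use embryonic globins, with Hba-x giving the zeta chain and Hbb-bh1 and Hbb-y giving beta-like chains. Definitive red cells from fetal liver, spleen and marrow then use the adult genes Hba-a1, Hba-a2 and the adult beta genes. The reference contains adult spleen, itself a site of red cell formation in mice, so that a log2 ratio near 0 does not mean that an erythroid transcript was scarce.

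Each value below is the log2 ratio of heart to reference after the array's median was subtracted. Between 12971 and 23929 of 28704 spots had a value on an array, the fewest on wildtype replicate 1 and the most on wildtype replicate 4. Rank correlations with the rest had a median of 0.576 for wildtype replicate 1 and of 0.663 to 0.792 for the remaining 7 arrays. Gja1, the connexin43 gene, averaged 0.08 ± 0.25 in null hearts and 1.03 ± 0.21 in wildtype hearts (SD, n = 4 each), and the groups did not overlap (exact two-sided permutation p = 0.0286, the smallest that 4 against 4 allows). Its difference of -0.95 (SE 0.15) did not pass adjustment over all features (limma adjusted p = 0.340), and 7.54% of all features also had groups without overlap. The 6 measured cardiomyocyte markers had a mean level of 0.86 to 1.14 on null arrays and 0.65 to 0.98 on wildtype arrays. The number of arrays limits the precision, and the 95% intervals of the erythroid differences reached from 0.25 to 0.52 to either side of the estimate on the log2 scale.

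The main question was whether erythroid transcripts differed in level between null and wildtype hearts. Of all features, 40.9% had a higher mean in null than in wildtype hearts. Among the 7 genes, 5 had higher means and 2 had lower means in null hearts, and in no gene did the genotypes separate. None passed the limma test with Benjamini-Hochberg adjustment over all features, where the adjusted p-values ran from 0.604 to 0.937, and 0 of 11804 features passed (0% called). At an unadjusted p under 0.05, 0 of the 7 genes were counted, against 8.23% of all features (2.1% higher and 6.13% lower in null hearts). Groups without overlap occurred in 0 of the 7 genes and in 7.54% of all features. The median difference of the 7 genes was 0.19 on the log2 scale, against -0.04 for all features, and it was 0.05 without wildtype replicate 4 and 0.03 without centring of the arrays, a setting that put the median of all features at -0.18. In bulk RNA, fewer red cells and less RNA per red cell cannot be told apart.

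Hbb-bh1, the embryonic beta-like globin gene, had the largest mean difference of the 7. It read 0.59, 0.47, 0.33 and 0.39 in null replicates 1 to 4, against 0.42, 0.20 and -0.33 in wildtype replicates 2 to 4, and had no value on wildtype replicate 1. The null pools lay close together, and wildtype replicate 2 stood among them, so that the groups overlapped through that pool alone. The mean log2 ratio was 0.45 ± 0.11 in null (SD, n = 4) and 0.10 ± 0.38 in wildtype hearts (SD, n = 3), a difference of 0.35 (SE 0.17, 1.27-fold, limma adjusted p = 0.604). The exact two-sided permutation test over arrays gave p = 0.171, with 0.0571 the smallest that 4 against 3 allows. Without wildtype replicate 4 the difference was 0.14.

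**Figure D1:**
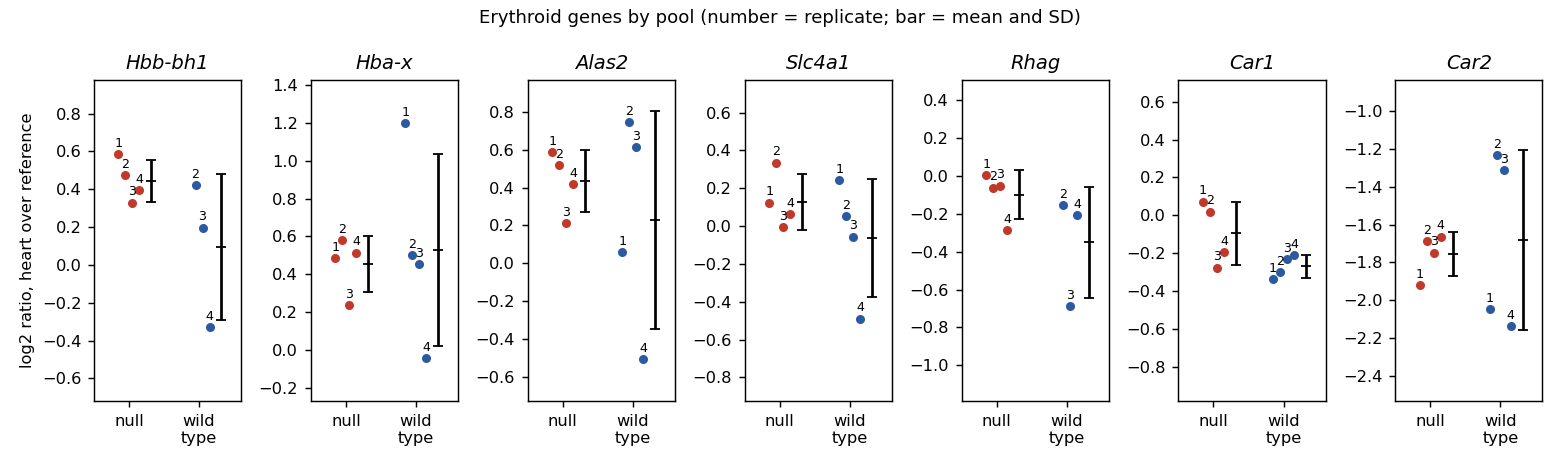
Log2 ratio of heart over reference (vertical axis) for the 7 erythroid genes in 4 null and 4 wildtype pools. Points are pools with their replicate number, and bars give the mean and SD of a genotype; each panel spans the same range on the log2 scale. For Alas2 and Car2, all 4 null points lie between wildtype replicates 2 and 3 above and 1 and 4 below.

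The other embryonic globin gene, Hba-x, did not follow Hbb-bh1 in its group means, but these include wildtype replicate 1, on which Hbb-bh1 had no value. Hba-x read 0.48, 0.58, 0.24 and 0.51 in null replicates 1 to 4, against 1.20, 0.50, 0.45 and -0.04 in wildtype replicates 1 to 4. Wildtype pools stood both above and below all null pools, with replicate 1 the highest and replicate 4 the lowest of all 8. Null pools averaged 0.45 ± 0.15 and wildtype pools 0.53 ± 0.51 (SD, n = 4 each), a difference of -0.07 (SE 0.22, 95% interval -0.55 to 0.40, limma adjusted p = 0.937). Without wildtype replicate 1, where the spot had its highest value, the difference of Hba-x was 0.15, of the same sign as that of Hbb-bh1. Without wildtype replicate 4 it was -0.26. The 2 embryonic genes were each read by 1 spot.

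Alas2 encodes the erythroid form of 5-aminolevulinate synthase, the first and rate-limiting enzyme of haem synthesis in red cell precursors. Alas2 read 0.59, 0.52, 0.21 and 0.42 in null replicates 1 to 4, against 0.06, 0.75, 0.62 and -0.51 in wildtype replicates 1 to 4. All null pools lay in the gap between wildtype replicates 2 and 3, which were above them, and wildtype replicates 1 and 4, which were below them. Null pools averaged 0.43 ± 0.16 and wildtype pools 0.23 ± 0.57 (SD, n = 4 each), a difference of 0.21 (SE 0.24, limma adjusted p = 0.818, exact permutation p = 0.629). The difference was -0.04 without wildtype replicate 4 and 0.38 without wildtype replicate 2. Its 2 spots carried different clones in different print blocks and gave differences of 0.20 and 0.16, and both put wildtype replicate 4 lowest and wildtype replicate 2 highest, but the second spot had no value on wildtype replicate 1.

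Among the membrane proteins, Slc4a1, the chloride-bicarbonate exchanger known as band 3, read 0.12, 0.34, -0.01 and 0.06 in null replicates 1 to 4, against 0.24, 0.05, -0.06 and -0.49 in wildtype replicates 1 to 4. The groups overlapped, with wildtype replicate 4 below every other pool. The difference was 0.19 (SE 0.16, limma adjusted p = 0.740). Leaving out wildtype replicate 4 gave 0.05, leaving out null replicate 2 gave 0.12 and leaving out wildtype replicate 1 gave 0.29. Of its 3 spots 1 had no value on any array, and the other 2 gave differences of 0.19 and 0.26. The first of these had no value on null replicate 2 or wildtype replicate 1 and the second none on wildtype replicate 2, so these pools each rest on 1 spot.

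Rhag, the Rh-associated glycoprotein of the red cell membrane, read 0.01, -0.06, -0.05 and -0.28 in null replicates 1 to 4, against -0.16, -0.69 and -0.21 in wildtype replicates 2 to 4, with no value on wildtype replicate 1. Here wildtype replicate 3 was the lowest pool, in contrast to Alas2, for which it was among the highest. The difference was 0.25 (SE 0.15, limma adjusted p = 0.662), and it was 0.08 without wildtype replicate 3.

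Car1 and Car2 encode cytosolic carbonic anhydrases, of which Car1 is typical of red cells and Car2 is also abundant in kidney, stomach and brain, organs that the reference contains. Car1 read 0.07, 0.02, -0.28 and -0.19 in null replicates 1 to 4, against -0.34, -0.30, -0.23 and -0.21 in wildtype replicates 1 to 4. The difference was 0.18 (SE 0.11, limma adjusted p = 0.670, exact permutation p = 0.114), and Car1 was the 1 gene of the 7 whose wildtype pools lay closer together (SD 0.059) than its null pools (SD 0.17). A further Car1 spot had values on 2 wildtype arrays and on no null array, and was not used. Car2 read -1.92, -1.69, -1.75 and -1.66 in null replicates 1 to 4, against -2.05, -1.23, -1.31 and -2.14 in wildtype replicates 1 to 4. It showed the order of Alas2, with all null pools between wildtype replicates 2 and 3 above and 1 and 4 below. Its difference was -0.07 (SE 0.20, limma adjusted p = 0.934), and 0.08 or 0.05 without wildtype replicate 2 or 3.

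**Figure D2:**
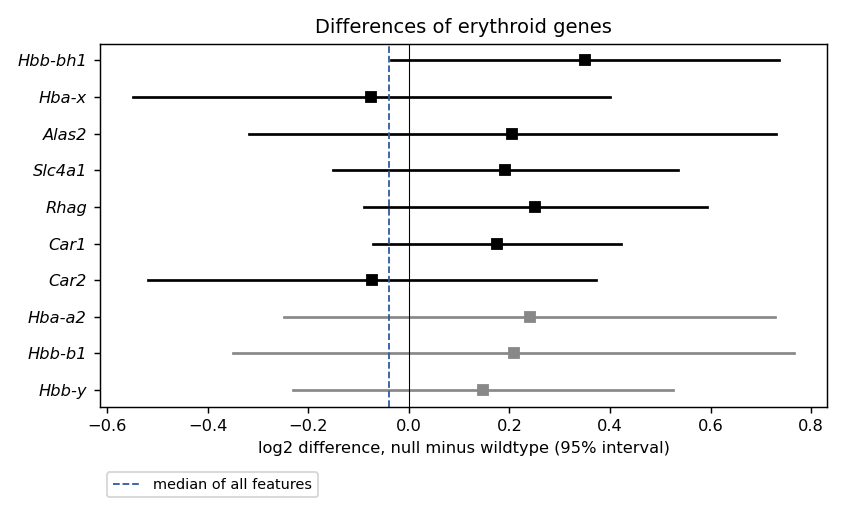
Log2 difference, null minus wildtype, with its 95% interval from the limma fit, for the 7 erythroid genes (black) and 3 further globin genes (grey). The dashed line is the median of all features, -0.04, and every interval includes 0.

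The globin genes outside the 9 give a reading of adult globin transcripts. Hba-a2, an adult alpha-globin gene, read 0.90, 0.90, 0.52 and 0.69 in null replicates 1 to 4, against 0.27, 0.89, 0.99 and -0.09 in wildtype replicates 1 to 4. Hbb-b1, an adult beta-globin gene, read 0.50, 0.64, 0.49 and 0.44 in null replicates 1 to 4, against -0.08, 0.76, 0.94 and -0.38 in wildtype replicates 1 to 4. Wildtype replicates 1 and 4 were again the lowest pools of both genes, and for Hbb-b1 wildtype replicates 2 and 3 were above all null pools. The differences were 0.24 (SE 0.22, limma adjusted p = 0.771) for Hba-a2 and 0.21 (SE 0.25, limma adjusted p = 0.832) for Hbb-b1, or 0.04 and -0.02 without wildtype replicate 4. Hba-a1 and Hba-a2 are near-identical copies, as are the adult beta genes, and a cDNA spot can bind transcripts of both, so that the assignment to 1 copy is uncertain.

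Hbb-y, the embryonic epsilon-like beta-globin gene, read -0.11, 0.43, 0.10 and -0.11 in null replicates 1 to 4, against 0.13, 0.01 and -0.34 in wildtype replicates 2 to 4. The groups overlapped, and the difference was 0.15 (SE 0.17, limma adjusted p = 0.818). It was 0.011 without wildtype replicate 4 and 0.030 without null replicate 2. Hbb-y also showed the error of a single spot, since the same clone had been printed at 4 places. On null replicate 2 the 2 spots used read 0.80 and 0.07, a gap larger than the group difference.

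The next question was how far the genes moved together over the pools. The 5 genes with complete values could be set against each other on all 8 arrays: Hba-x, Slc4a1, Car1, Car2 and Alas2. Over their 10 pairs the median Pearson r was 0.28, with 7 of 10 positive, and the median Spearman rho was 0.12. Over all pairs of named genes measured on 8 arrays, the median r was 0.02 and 51.3% were positive. The 25th and 75th percentiles of r over all these pairs were -0.34 and 0.37, so the median of the 10 pairs lay between them. The 95th percentile was 0.74. No pair passed after Benjamini-Hochberg adjustment of the exact permutation p-values over the 10 pairs. Alas2 and Car2 had the highest Pearson correlation, r = 0.79 (exact permutation p = 0.0159, adjusted p = 0.159) and Spearman rho = 0.83 (exact permutation p = 0.0154, adjusted p = 0.0769), and r was 0.61 without the 2 arrays farthest from the median of Car2. Hba-x and Slc4a1 had the highest rank correlation, Spearman rho = 0.88 (exact permutation p = 0.00724, adjusted p = 0.0724), with Pearson r = 0.77 (exact permutation p = 0.0510, adjusted p = 0.255). Their r was 0.61 without wildtype replicates 1 and 4, and deviations from the genotype means gave 0.90, against 0.86 for Alas2 and Car2. The median r of the 10 pairs was -0.25 without wildtype replicate 4 and 0.56 without wildtype replicate 1, so that the median rested on these pools. Values of 1 array share its centring and hybridisation.

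The adult globin genes and Alas2 formed the tightest group when the 3 further globin genes were added, a choice made after their values were seen. Over the 45 pairs of 10 genes, 3 passed on Pearson's r after adjustment over these pairs. All of them lay among Alas2, Hba-a2 and Hbb-b1. No pair passed on Spearman's rho, where the smallest adjusted exact permutation p was 0.0815. Over all pairs of named genes measured on 8 arrays, the 5th and 95th percentiles of r were -0.70 and 0.74. The share of all these pairs that would pass was not computed. Alas2 and Hba-a2 had Pearson r = 0.98 (exact permutation p = 0.000273, adjusted p = 0.0100) and Spearman rho = 0.86 (exact permutation p = 0.0107, adjusted p = 0.0964). Without wildtype replicates 1 and 4, the arrays farthest from the median of Alas2, r was 0.89. Alas2 and Hbb-b1 had r = 0.93 (adjusted exact permutation p = 0.0193) and rho = 0.93 (adjusted p = 0.0815), with r = 0.64 without the same 2 arrays. Deviations from the genotype means gave r = 0.98 and r = 0.92 for these pairs. Of 5676 named genes measured on all arrays, Hba-a2 had the highest correlation with Alas2 and Hbb-b1 ranked 17, while Cep97 and Tmem185a came next after Hba-a2 with r = 0.97 each. The spots of Alas2, Hba-a2 and Hbb-b1 lay in different print blocks, while the spot of Car2 lay in the same block as that of Hba-a2.

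**Figure D3:**
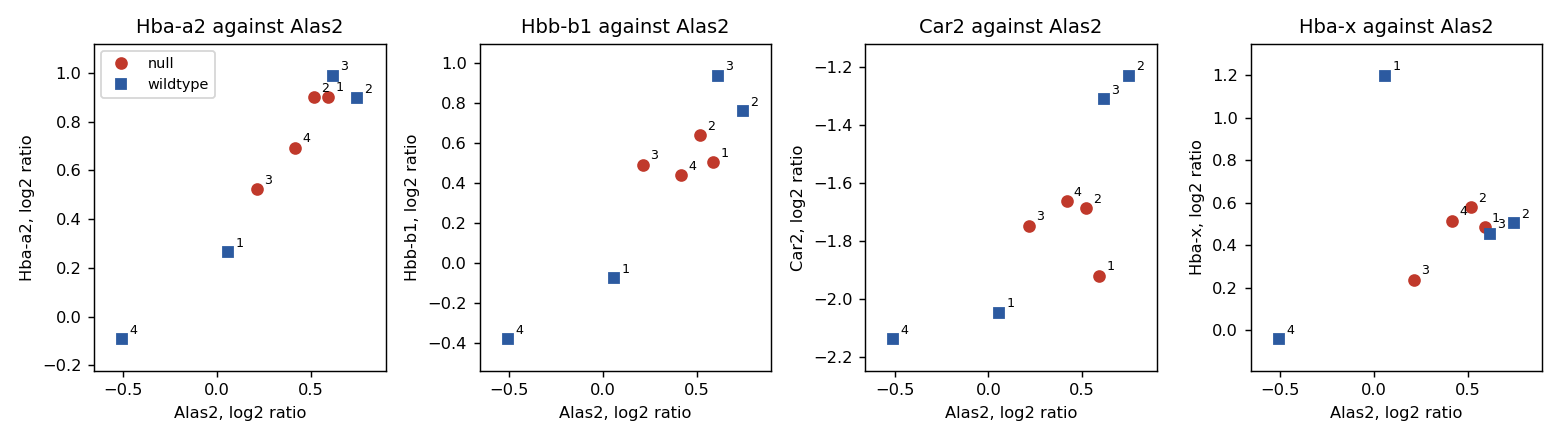
Log2 ratios of Hba-a2, Hbb-b1, Car2 and Hba-x (vertical axes) against Alas2 (horizontal axes), 1 point per pool with its replicate number, null as red circles and wildtype as blue squares. Hba-a2 and Hbb-b1 lie along a line from wildtype replicate 4 at the low end to wildtype replicates 2 and 3 at the high end, and Hba-x leaves it on wildtype replicate 1, at 1.20.

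No pair with an embryonic globin gene passed after adjustment over the 45 pairs. Hbb-bh1 and Hba-x had r = 0.88 over the 7 arrays with both values (exact permutation p = 0.0286, adjusted p = 0.162; rho = 0.71, exact permutation p = 0.0881, adjusted p = 0.496), and r = 0.57 without the 2 arrays farthest from the median of Hbb-bh1. Hbb-bh1 and Slc4a1 had r = 0.93 (exact permutation p = 0.00972, adjusted p = 0.0875; rho = 0.93, exact permutation p = 0.00675, adjusted p = 0.0815), or 0.51 without those arrays. Hbb-bh1 and Alas2 had r = 0.87 (exact permutation p = 0.0544, adjusted p = 0.222; rho = 0.46, exact permutation p = 0.302, adjusted p = 0.619), and the relation did not hold without null replicate 3 and wildtype replicate 4, where r was -0.08. Hba-x and Hba-a2 had r = 0.18 (exact permutation p = 0.650, adjusted p = 0.766; rho = 0.10, exact permutation p = 0.840, adjusted p = 0.977), and 0.71 without wildtype replicates 1 and 4. Rhag had a negative r to 5 of the other 9 genes. The difference between these correlations was not tested.

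**Figure D4:**
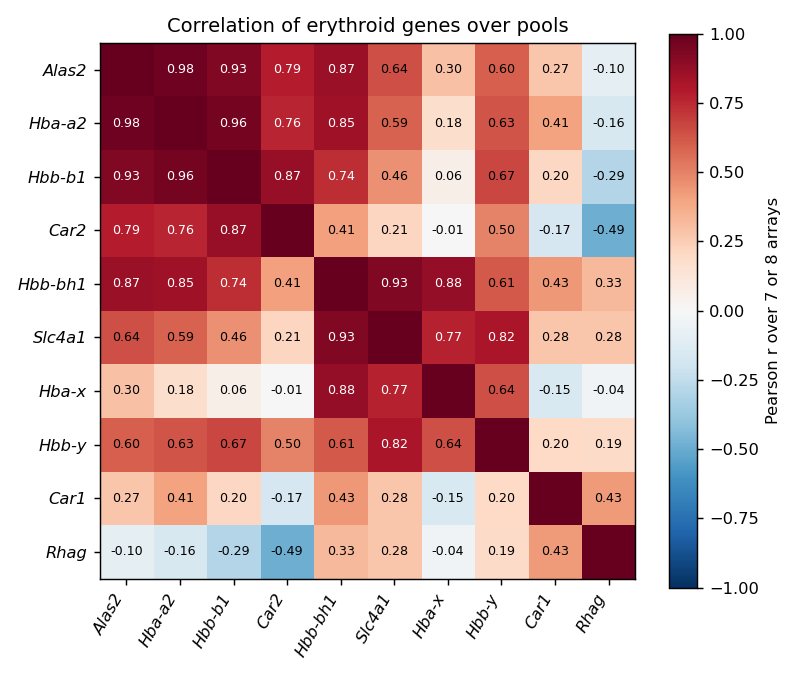
Pearson correlation over 7 or 8 arrays for each pair of the 7 erythroid genes and 3 further globin genes, from -1 (blue) to 1 (red). Alas2, Hba-a2, Hbb-b1 and Car2 form a block of positive values from 0.76 to 0.98. Rhag, measured on 7 arrays, has r between -0.49 and 0.43 to the other genes, and Car1 has r between -0.17 and 0.43.

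Promoter sequence is shown for Hba-x, Alas2 and Hba-a2, because Alas2 and Hba-a2 had the highest correlation among the pairs described above and Hba-x is an embryonic globin gene that left their line. Sequences are from RefSeq on GRCm38.p6 and cover the 250 bases before the annotated start, at chr11:32276350-32276599 for Hba-x, chrX:150547167-150547416 for Alas2 and chr11:32296242-32296491 for Hba-a2, all on the plus strand. Capitals mark the words searched. The GATA word could be AGATAA or its form AGATAG, or it could be TGATAA or its form TGATAG, on either strand. The KLF word was CACCC on either strand, the CCAAT word was searched on either strand, and the TATA word TATAAA on the gene's strand alone.
Hba-x: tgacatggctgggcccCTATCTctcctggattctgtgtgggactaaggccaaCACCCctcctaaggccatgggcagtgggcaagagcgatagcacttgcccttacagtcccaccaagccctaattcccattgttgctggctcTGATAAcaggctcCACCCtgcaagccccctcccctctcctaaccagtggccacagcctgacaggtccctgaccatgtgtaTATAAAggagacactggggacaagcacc
Alas2: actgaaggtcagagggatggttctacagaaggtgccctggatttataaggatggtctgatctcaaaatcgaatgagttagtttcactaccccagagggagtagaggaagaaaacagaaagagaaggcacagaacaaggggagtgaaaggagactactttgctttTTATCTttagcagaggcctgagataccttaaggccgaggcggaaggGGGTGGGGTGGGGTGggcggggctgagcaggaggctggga
Hba-a2: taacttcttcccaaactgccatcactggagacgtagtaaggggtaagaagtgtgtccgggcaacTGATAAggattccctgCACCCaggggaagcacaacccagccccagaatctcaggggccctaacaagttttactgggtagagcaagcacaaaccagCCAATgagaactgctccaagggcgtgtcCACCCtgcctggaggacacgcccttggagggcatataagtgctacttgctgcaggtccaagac
Each of the 3 windows held at least 1 GATA word and at least 2 CACCC words. Of 32851 RefSeq promoter windows of the same length, 26.5% held a GATA word, 52.0% CACCC, 33.8% CCAAT and 7.59% TATAAA. These shares are for at least 1 match, and the share of windows with at least 2 CACCC words was not counted. The Hba-x window had 2 GATA words, 2 CACCC words and TATAAA, which began 28 bases before the start. The Alas2 window had 1 GATA word, which began 86 bases before the start, and 3 CACCC words on the other strand in direct succession. The Hba-a2 window had 1 GATA word, 2 CACCC words and CCAAT. The full RefSeq entries of Hba-a1 and Hba-a2, which run past the start and are longer than the windows printed here, were identical over 297 bases once shifted by 3. GATA and KLF factors are known to act at erythroid genes, but a matching word is a description of the sequence and not a bound site.

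The balance of embryonic and adult globin was examined on each array by subtracting the mean of Hba-a2 and Hbb-b1 from the embryonic gene. This measure was chosen after the data were seen. Subtracting a single value from a whole array does not change it, but centring within print blocks does. The difference of log2 ratios for Hbb-bh1 was -0.12, -0.30, -0.18 and -0.17 in null replicates 1 to 4, against -0.41, -0.76 and -0.09 in wildtype replicates 2 to 4. The groups overlapped through wildtype replicate 4, and the difference between genotypes was 0.23 (exact two-sided permutation p = 0.286, n = 4 null and 3 wildtype), or 0.06 without wildtype replicate 3. With centring within print blocks it was 0.16 (exact permutation p = 0.571). For Hba-x the values were -0.22, -0.19, -0.27 and -0.05 in null replicates 1 to 4, against 1.10, -0.32, -0.51 and 0.19 in wildtype replicates 1 to 4. The null pools lay within 0.22 of each other, while wildtype pools stood on both sides of them, and the difference of -0.30 (exact permutation p = 0.571, n = 4 each) was 0.03 without wildtype replicate 1. The balance between Hba-a2 and Hbb-b1 differed by 0.03 between genotypes (exact permutation p = 0.743, n = 4 each).

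Most of the 7 erythroid genes varied more over wildtype pools than over null pools. The wildtype SD exceeded the null SD for 6 of the 7 genes, as it did for 59.3% of all features. The median SD of the 7 genes was 0.15 over null pools and 0.38 over wildtype pools, against 0.16 and 0.19 for all features. Hbb-b1 had an SD of 0.085 in null and 0.64 in wildtype hearts (n = 4 each), and 83.5% of all features had a larger SD in null hearts while 1.78% had a larger one in wildtype hearts. For Alas2 the shares were 47.4% in null and 3.03% in wildtype hearts. Of the other further globin genes, Hba-a2 had an SD of 0.18 in null and 0.52 in wildtype hearts (n = 4 each). Hbb-y went the other way, with 0.26 in null (n = 4) and 0.24 in wildtype hearts (n = 3). These figures are descriptions, and the difference in spread was not tested. The order seen for Alas2, Car2 and Hbb-b1, with wildtype replicates 2 and 3 above and 1 and 4 below all null values, was noticed in the data and then counted. It occurred in 76 of 8238 features measured on all arrays (0.923%). With any 2 wildtype pools above and the other 2 below all null values, the count was 178 (2.16%). Hba-x, Slc4a1, Car1 and Hba-a2, also measured on all arrays, showed neither order. Since the order was taken from these genes, the shares are no test of it.

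Broader erythroid lists were then read. Of 111 genes of haem and iron handling, red cell membrane, erythroid transcription and red cell enzymes, 75 were measured, 31 higher and 44 lower in null hearts. Of all features 40.9% were higher in null hearts, a share to set beside this count and those of the single lists below. The median difference of the 75 genes was -0.05, against -0.04 for all features. None passed limma's adjusted p. Groups did not overlap in 4 of the 75, or 5.33%, against 7.54% of all features. Many genes of these lists are used by all cells and not by red cells alone.

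In the haem and iron list 13 of 23 measured genes were higher in null hearts and 10 lower, the median being 0.01. Cpox, the coproporphyrinogen oxidase of haem synthesis, had 0.51 (SE 0.22), or 0.29 without wildtype replicate 3. Ppox, the next enzyme of the pathway, had 0.18 (SE 0.12). Urod, the uroporphyrinogen decarboxylase, and Aco1, the iron-regulatory aconitase, had -0.16 (SE 0.10) and -0.22 (SE 0.11), and in both every null pool was below every wildtype pool. Adjusted p-values from limma were at least 0.591 for these 4.

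In the red cell membrane list 6 of 20 measured genes were higher in null hearts and 14 lower, the median being -0.04. Kel, which encodes the Kell blood group protein, read -0.35, -0.38, -0.54 and -0.25 in null replicates 1 to 4, against 0.62, 0.05, -0.16 and -0.16 in wildtype replicates 1 to 4. Its groups did not overlap, and the difference of -0.47 (SE 0.17, limma adjusted p = 0.558) was -0.29 without wildtype replicate 1. Kel thus had the opposite sign to Rhag and Slc4a1 in its point estimate. Cd24a, a surface protein of immature blood cells, had -0.47 (SE 0.22), Cd47, the integrin-associated protein, -0.25 (SE 0.16) and Bsg, the Ok blood group protein basigin, 0.19 (SE 0.12). Without wildtype replicate 3 the difference of Cd24a was -0.26. Without wildtype replicate 1 that of Cd47 was -0.14 and that of Bsg 0.12, and Cd47 was -0.16 without null replicate 1 and -0.38 without wildtype replicate 3.

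Among erythroid transcription factors and receptors 4 of 16 genes had higher and 12 lower values, with a median of -0.12 (40.9% of all features were higher). Ldb1, the cofactor that joins GATA1 and TAL1 in the erythroid complex and is also active in the heart, read 0.49, 0.60, 0.62 and 0.47 in null replicates 1 to 4, against 0.12, 0.08, 0.13 and 0.27 in wildtype replicates 1 to 4. Its difference was 0.39 (SE 0.10, limma adjusted p = 0.510) without overlap. Kit, the stem cell factor receptor of early progenitors, had 0.27 (SE 0.13), Gata2, a factor of progenitors and endothelium, -0.38 (SE 0.26), and Cited2 -0.40 (SE 0.17). Gata2 had 1.25 on wildtype replicate 1, against -0.18 to 0.11 in the other wildtype pools, and its difference was -0.07 without that array. Of red cell enzymes and late maturation genes 8 of 16 were higher and 8 lower. Ube2l6, a ubiquitin-conjugating enzyme of late erythroid cells, had 0.30 (SE 0.14), Prdx2, the main peroxiredoxin of red cells, 0.14 (SE 0.13), Fn3k -0.18 (SE 0.15), and Nprl3, which holds alpha-globin enhancers in its introns, -0.67 (SE 0.41). Without wildtype replicate 1 the difference of Fn3k was -0.049 and that of Prdx2 0.064. The difference of Nprl3 was -0.26 without null replicate 3 and -0.32 without wildtype replicate 1.

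The genes most like the mean of the 5 complete erythroid genes were not from the erythroid lists. Over the 8 arrays, and among 5672 other named genes, Arhgef25 had r = 0.95, Nedd1 0.94, H6pd 0.92, Tsc22d1 0.92 and Tvp23b 0.91, and 59 genes had r above 0.8. Hba-a2 ranked 13 with r = 0.88 and Hbb-b1 ranked 64 with r = 0.79. With 8 arrays and this many genes, the ranks describe these pools only.

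Markers of other cells that a heart pool could hold were read beside the erythroid genes. The mean of the 5 measured of 13 macrophage markers was -0.78 to -0.40 on null arrays and -0.74 to -0.42 on wildtype arrays, and that of 5 of 11 neutrophil markers -0.72 to -0.41 and -0.53 to -0.27. Hepatocyte markers, 8 of 13, had means of -1.77 to -1.13 on null and -1.50 to -0.94 on wildtype arrays. Hepatocyte marker means were -1.33, -0.94, -1.19 and -1.50 in wildtype replicates 1 to 4, the same order of wildtype pools as for Alas2. Wildtype replicates 2 and 3 also stood above 1 and 4 in the macrophage, red cell membrane and red cell enzyme lists and in the list of other adult tissues. The lung list had this order too, but narrowly, with -2.03 in wildtype replicate 3 and -2.031 in wildtype replicate 1. In none of these lists did all null arrays lie between wildtype replicates 2 and 3 above and 1 and 4 below. Only 2 of 11 platelet markers were measured, with means of -0.90 to -0.29 on null arrays and -0.43 to 0.40 on wildtype arrays, the highest on wildtype replicate 1. Endothelial markers, 7 of 12, ranged from 0.64 to 0.79 on null and from 0.40 to 0.92 on wildtype arrays, with wildtype replicate 1 highest and wildtype replicates 2 and 3 lowest. Lymphocyte markers, 2 of 12, had means of -1.13 to -0.18 on null and -1.13 to -0.39 on wildtype arrays. Lung markers, 3 of 8, were lower on all null arrays, with means of -3.18 to -2.82, than on all wildtype arrays, with means of -2.48 to -1.85. The list of other adult tissues, 8 of 26, separated in the same direction, with means of -2.85 to -2.52 on null and -2.49 to -1.98 on wildtype arrays. The part of these cells, of depth and of wildtype replicates 1 and 4 in the erythroid values was not tested.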

How the data were processed

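The authors deposited 1 table of log ratios per spot for 8 two-colour cDNA arrays. The deposited values were read as log2 from the data: among 30866033 differences between spots of 1 print block, 7337 matched a quotient of integers no larger than 100 in base 2 (tolerance 1.5e-09), against 194 in base e and 629 in base 10. For scanner, background correction, spot filter and scaling the sources used here give nothing. The labels do not state the direction. Heart was taken as numerator because cardiomyocyte genes had array medians of 0.72 to 1.18 and genes of other adult tissues -3.26 to -2.12. All arrays have the same dye orientation, so dye bias stays in levels.

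Each array was centred on its median. A spot was kept if at least 3 null and 3 wildtype arrays had a value for it, and spots that share a single symbol were averaged by a fit of spot and array effects. Null minus wildtype was fitted on all 11804 features, 7603 of them with 1 symbol, with lmFit and eBayes in limma 3.58.1 (R 4.3.3), with Benjamini-Hochberg adjustment and a threshold of 0.05. The script was tested on simulated data. Single genes were also tested with exact permutation tests (scipy 1.17.1, Python 3.11.15).

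Members and lists were chosen with earlier results of these data known. Named genes are the members, Gja1, the measured globins, up to 4 genes per list by p-value and the 5 genes most like the members' mean. Same-numbered arrays are not said to be paired, and their deviations had no positive correlation (r from -0.25 to -0.01), so the block was an alternative. The planned balance of embryonic globins against Hba-a1 had no value, since Hba-a1 had no spot of its own, and was replaced after the data were seen. Alternatives were other centrings and scalings, limits on missing values, spot averages, robust and weighted fits and each array left out. The promoter search left out the bases after the start that its plan had included.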

Additional observations from a re-analysis of the deposited data

Results flagged for a closer look

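The gene flagged for a sample far from the others was Nprl3, at -1.80 on null replicate 3, against -0.32 to -0.02 on the other null arrays. Its difference was -0.67 with all arrays, -0.26 without that array and -0.32 without wildtype replicate 1. It was 1 flag among 60 groups of 4 arrays looked at, where chance flags about 1 in 20.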

How the results depend on the processing

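With limma, 0 features were called under the alternatives run, and 0 at a threshold of 0.1 on the adjusted p, against 972 at an unadjusted p under 0.05. The median difference of the erythroid genes stayed positive, from 0.05 to 0.24 with an array left out and from 0.03 to 0.20 otherwise, and the spread of their mean over arrays was 0.19. With the replicate number as a block it was 0.19, and the block changed no call. Of 196 values of the 7 genes and 3 globins under alternatives 189 kept their direction and the smallest adjusted p from limma was 0.456. An array was left out in 5 of the 7 that turned. Car2 was 0.0017 with scaling to equal spread, and Hba-x 0.12 with array weights. Ranges with an array left out were 0.14 to 0.51 for Hbb-bh1, -0.26 to 0.15 for Hba-x, -0.22 to 0.078 for Car2 (0.051 without wildtype replicate 3), -0.039 to 0.38 for Alas2 and -0.021 to 0.42 for Hbb-b1. Without centring, Arhgef25 was -0.024, Nedd1 -0.12, H6pd -0.10, Tsc22d1 -0.087, Tvp23b -0.086 and Prdx2 -0.016. Tsc22d1 was -0.37 on its most complete spot and Nedd1 -0.0060 with array weights. With an array left out these 5 genes of like pattern ranged from -0.0060 to 0.23, -0.087 to 0.12, -0.016 to 0.10, 0.017 to 0.11 and -0.062 to 0.15. Gja1 ranged from -1.04 to -0.83. The median correlation of pairs ranged from -0.25 to 0.56 with an array left out and was 0.56 with scaling to equal spread. The globin balance ranged from 0.06 to 0.40 for Hbb-bh1 and from -0.51 to 0.030 for Hba-x. Features at an unadjusted p under 0.05 numbered 688 to 1025 with an array left out. They numbered 614 of those measured on all 8 arrays, where fewer features were tested, 1297 with array weights and 1392 without centring. The causes were not tested. Missing spots limited Hbb-bh1, Rhag and Hbb-y to 3 wildtype arrays.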
